A study of Mus musculus with 6 samples.

Results

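Phospholipase A2 enzymes cut the fatty acid from the sn-2 position of membrane phospholipids and leave a lysophospholipid. They form the release step of the Lands cycle, in which lysophospholipid acyltransferases such as LPCAT3 put a fatty acid back, and in macrophages the arachidonic acid they set free feeds the cyclooxygenases and 5-lipoxygenase. The group examined here holds 9 genes of 49315 in the count tables, chosen by name: the cytosolic enzyme *Pla2g4a*, the calcium-independent enzymes *Pla2g6*, *Pnpla8*, *Pnpla6* and *Pnpla7*, the secreted enzymes *Pla2g2d* and *Pla2g12a*, the PAF-cleaving enzyme *Pla2g7* and the lysosomal enzyme *Pla2g15*. All 9 passed the filter on low counts.

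RNA was sequenced from liver cells bound by anti-F4/80 beads, which enriches Kupffer cells, the liver's own macrophages, with 1 library per mouse from 3 WT and 3 Lpcat3 KOMac mice. All mice carried loxP-flanked *Lpcat3* alleles on a C57BL/6N background and ate a diet with 60% fat for 16 weeks from young adulthood. Lpcat3 KOMac mice also carried 1 copy of LysM-Cre, a Cre recombinase inserted at *Lyz2* and active in myeloid cells, while their WT littermates had none. The question was whether loss of the reacylating enzyme in myeloid cells goes with other mRNA levels of the enzymes that open the cycle.

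The test between genotypes, at 3 mice each, called 0 of the 9 phospholipase genes. It also called 0 of all 16134 genes tested, so that the targeted *Lpcat3* did not pass either. The 2 most abundant members, *Pla2g15* and *Pla2g7*, made up between 72.1% and 80.5% of the summed level per length of the 9 genes in each library. The groups overlapped for all 9, where they did not overlap for 7.49% of all genes tested. For 8 of the 9 the 95% interval lay within a 2-fold change (for 6 without Lpcat3 KOMac mouse 2). *Pla2g6* and *Pnpla8* were highest in the same 2 libraries, 1 of each genotype, which also held the most hepatocyte transcripts. These 2 libraries were the highest pair for 21.8% of all genes tested.

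The 9 enzymes fall into classes with a catalytic serine or a catalytic histidine. The coding bases around the catalytic codon are shown for each enzyme. Each stretch runs 5′ to 3′ on the coding strand, was read from the GENCODE M21 transcripts (GRCm38), and has the codon of the catalytic residue in capitals with 3 codons on either side. The capitals mark serine in the cytosolic, calcium-independent, PAF-cleaving and lysosomal enzymes, and histidine in the secreted enzymes.
Pla2g4a: gctggtcttTCTggatccaca
Pla2g6: gcaggaaccAGCacagggggc
Pnpla8: tgtggagtaAGCacaggggcc
Pnpla6: ggaggcacaTCCataggttcc
Pnpla7: ggaggcacaTCCatcggggct
Pla2g7: atgggacatTCTtttggagga
Pla2g15: gtcgcccacAGCatgggcaac
Pla2g2d: tgtcagaagCATgattgttgc
Pla2g12a: tgcaaccagCACgacagatgc

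The stretches lie in coding exons, at chr1:149879992-149880012 on the minus strand for *Pla2g4a* (exon 8 of 18), chr15:79299057-79299077 on the minus strand for *Pla2g6* (exon 10 of 16) and chr12:44290645-44295902 on the plus strand for *Pnpla8*, where exons 5 and 6 of 10 meet and the interval takes in the intron between them. On the plus strand they lie at chr8:3536927-3536947 for *Pnpla6* (exon 26 of 34), chr2:25047672-25047692 for *Pnpla7* (exon 26 of 35) and chr17:43604587-43604607 for *Pla2g7* (exon 9 of 12). The others on the plus strand are at chr8:106161164-106161184 for *Pla2g15* (exon 5 of 6), chr4:138779353-138779373 for *Pla2g2d* (exon 3 of 4) and chr3:129890301-129890321 for *Pla2g12a* (exon 3 of 4). The catalytic codon is number 228 of 748 in *Pla2g4a*, 198 of 412 in *Pla2g15*, 272 of 440 in *Pla2g7* and 966 of 1327 in *Pnpla6*.

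Library totals lay between 44954224 and 71392812 counts. Levels are given as CPM (counts scaled to library size, with the TMM correction for composition), here and below in the order of mice 1 to 3. *Lpcat3* itself was at 85.0, 66.2 and 61.2 CPM in the WT libraries and 19.6, 33.3 and 19.4 CPM in the Lpcat3 KOMac libraries. Reads of *Lpcat3* thus remained in each Lpcat3 KOMac library, and the cells they came from were not tested. The exons of *Lpcat3* share 334 bases with *Emg1* on the other strand, which had between 1676 and 2675 counts per library. *Lpcat3* had between 912 and 1727 counts in the Lpcat3 KOMac libraries. *Lyz2*, the gene that carries Cre in Lpcat3 KOMac mice, was at 4695, 7659 and 6285 CPM in the WT libraries and 2452, 1533 and 2980 CPM in the Lpcat3 KOMac libraries. The Kupffer cell marker *Clec4f* was at 9170, 12170 and 8772 CPM in the WT libraries and 7361, 6449 and 8331 CPM in the Lpcat3 KOMac libraries. The Y-linked *Ddx3y* was at least 114 CPM in all 6 libraries. The summed level of 7 hepatocyte markers was 23620, 2150 and 1881 CPM in WT mice 1 to 3 and 5282, 14090 and 5017 CPM in the Lpcat3 KOMac libraries, with WT mouse 1 and Lpcat3 KOMac mouse 2 highest. The sum of 8 markers of recruited macrophages and monocytes was between 151 and 577 CPM in WT and between 585 and 632 CPM in Lpcat3 KOMac cells, with 3 of 8 higher in each Lpcat3 KOMac library than in each WT library, an order found for 2.29% of all genes tested, and 0 of 8 called by edgeR. The sum of 8 Kupffer cell markers was between 26550 and 37080 CPM in WT and between 19570 and 28920 CPM in Lpcat3 KOMac cells. Of the 8, 2 (*Clec4f* and *Folr2*) were lower in each Lpcat3 KOMac library than in each WT library. This order was found for 5.2% of all genes tested, and 0 of the 8 were called by edgeR. Markers of liver sinusoidal endothelial cells summed to between 733 and 850.2 CPM in WT and between 820.7 and 1141 CPM in Lpcat3 KOMac cells. EdgeR called 0 of these 6. Among the markers of all cell types, unadjusted edgeR p-values were under 0.05 for *Kdr* (log2 fold change 0.79), *Ptprb* (0.77), *Spp1* (1.81) and *Chil3* (1.70). The same held for *Cd3d* (1.11), *S100a8* (0.99), *Clec4f* (-0.44) and *Folr2* (-0.45), and for 2.64% of all genes tested. Over the 6 libraries the sums were between 80.7 and 250.0 CPM for stellate cells, between 16.0 and 54.4 CPM for dendritic cells, between 4.13 and 36.5 CPM for B and plasma cells, at most 2.18 CPM for T and NK cells and at most 1.14 CPM for cholangiocytes. Of the neutrophil markers, *Csf3r* was between 74.7 and 155.5 CPM, while *S100a8*, *S100a9* and *Retnlg* were at most 2.19, 2.83 and 2.12 CPM, with *S100a8* higher in each Lpcat3 KOMac library than in each WT library. The part of these other cells in the results below was not tested, and in such bulk samples fewer cells of a type and less RNA per cell cannot be told apart.

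Within the group, levels per length spanned several orders of magnitude and fell into steps. Levels are given here as RPKM (TMM-scaled CPM per kilobase of exon, with the exon length in the count tables). *Pla2g15* was between 107 and 145 RPKM and *Pla2g7* between 90.8 and 169 RPKM over the 6 libraries. These ranges overlapped, and *Pla2g15* was the higher in 4 of 6 libraries. Mean RPKM was higher for *Pla2g15* than for 97.53% and for *Pla2g7* than for 97.46% of the 16134 genes tested.

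*Pla2g4a* (20.7 to 30.4 RPKM), *Pnpla8* (15.4 to 31.1 RPKM) and *Pnpla7* (17.1 to 22.5 RPKM) formed the next step, with ranges that overlapped each other and lay below those of *Pla2g7* and *Pla2g15*. The place of *Pnpla8* rests on its exon length, since with the GENCODE M21 exons, whose summed length is 14174 bases against 3947 in the count tables, its mean fell from 21.1 to 5.87 RPKM. *Pnpla6* (2.92 to 4.24 RPKM), *Pla2g12a* (3.17 to 4.04 RPKM) and *Pla2g6* (2.47 to 5.23 RPKM) followed, again with overlapping ranges. *Pla2g2d* was at most 0.269 RPKM, below the lowest value of each of the other members. The summed level of the 9 genes was 335.0 ± 21.5 RPKM (SD, n = 3) in WT and 315.3 ± 33.9 RPKM (SD, n = 3) in Lpcat3 KOMac cells.

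**Figure D1:**
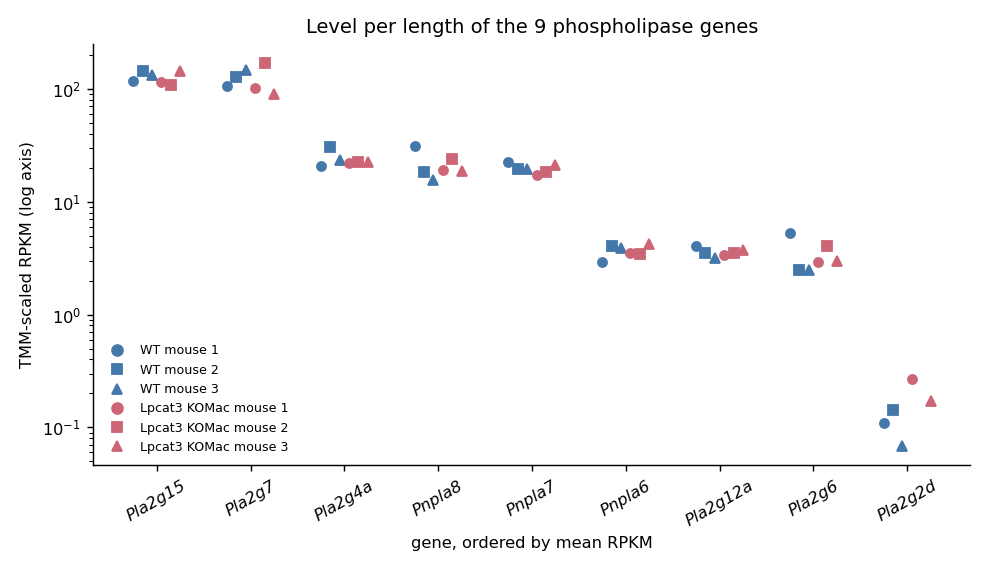
Level per length of the 9 phospholipase genes. The y axis gives TMM-scaled RPKM on a log axis, each point is 1 library and genes are ordered by mean RPKM; *Pla2g2d* had no reads in Lpcat3 KOMac mouse 2 and that point is not drawn. *Pla2g15* and *Pla2g7* lie above 90 RPKM in each library and *Pla2g2d* at or below 0.269 RPKM.

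Genotypes were compared on the whole table with edgeR's quasi-likelihood test, with p-values adjusted by the Benjamini-Hochberg method over 16134 genes. At an adjusted p-value under 0.05, 0 genes (0%) were called. Without adjustment 426 (2.64%) were under 0.05. This count was 2028 without WT mouse 1, 227 without WT mouse 2 and 543 without WT mouse 3. It was 179 without Lpcat3 KOMac mouse 1, 245 without Lpcat3 KOMac mouse 2 and 382 without Lpcat3 KOMac mouse 3. Among the 9 phospholipase genes, edgeR called 0, 0 were under 0.05 without adjustment, and 0 were called by DESeq2, which called 12 genes in all, or by limma-voom, which called 0 in all. DESeq2 gave *Pla2g2d* no adjusted p-value and so could not call it. The groups overlapped for all 9, where they did not overlap for 7.49% of all genes tested (5.2% lower and 2.29% higher in Lpcat3 KOMac cells). Of the 9 log2 fold changes (Lpcat3 KOMac against WT), 7 were negative, against 59.9% of all genes tested. With libraries scaled by total counts alone 3 were negative, against 35.1% of all genes tested. Their median was -0.07, and that of all genes tested was -0.04. Each change was smaller than its standard error, and each adjusted p-value was 0.9999. A two-sided exact permutation test on the log2 CPM of each gene (pseudocount 0.5) gave p-values between 0.4 and 1. With 3 against 3 mice this test cannot go below 0.1.

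The 95% intervals say how large a difference the 3 mice per genotype still allow. For 8 of the 9 genes the interval lay inside a 2-fold change in either direction, and for 5 (*Pla2g4a*, *Pnpla6*, *Pnpla7*, *Pla2g12a* and *Pla2g15*) inside a 1.5-fold change. These limits depended on single mice: the count inside 2-fold was 6 without WT mouse 2 or without Lpcat3 KOMac mouse 2, and that inside 1.5-fold was 3 without WT mouse 3 or without Lpcat3 KOMac mouse 2. *Pla2g2d* was the exception, with an interval from 0.207-fold to 9.04-fold. The intervals hold for single genes and take in the spread between these mice.

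**Figure D2:**
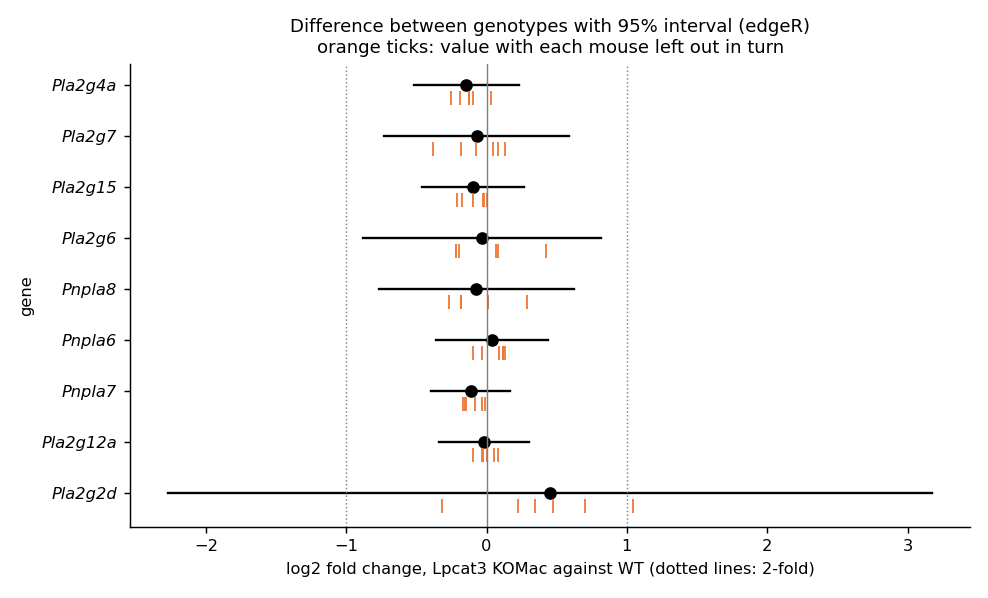
Difference between genotypes for each gene. The x axis gives the log2 fold change of Lpcat3 KOMac against WT, points and lines the edgeR estimate and its 95% interval, and orange ticks the estimate with each of the 6 mice left out in turn. All 9 intervals include 0, and 8 of them lie between the dotted lines of a 2-fold change.

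*Pla2g4a* (ENSMUSG00000056220, chromosome 1 of GRCm38, 149829618 to 149961290, minus strand) encodes the cytosolic phospholipase A2 that prefers arachidonic acid and moves to membranes when calcium rises. It was at 132, 194 and 148 CPM in the WT libraries and 141.2, 143.5 and 144.6 CPM in the Lpcat3 KOMac libraries. The Lpcat3 KOMac mice were close together and lay inside the range of the WT mice, of which mouse 2 was highest. The log2 fold change was -0.14 (standard error 0.15, 95% interval -0.52 to 0.23). It was 0.0285 without WT mouse 2.

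*Pla2g7* (ENSMUSG00000023913, chromosome 17, 43568098 to 43612201, plus strand) encodes the secreted enzyme that cleaves platelet-activating factor and oxidized phospholipids, known as lipoprotein-associated phospholipase A2. It was at 309, 367 and 425.5 CPM in the WT libraries and 294, 490.5 and 264 CPM in the Lpcat3 KOMac libraries. Lpcat3 KOMac mouse 2 was the highest of all 6 libraries, and the other 2 Lpcat3 KOMac mice were the lowest. The log2 fold change was -0.07 (standard error 0.27, 95% interval -0.73 to 0.59).

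Its size and sign depended on single mice. The log2 fold change was -0.38 without Lpcat3 KOMac mouse 2, -0.18 without WT mouse 1, 0.05 without WT mouse 3, 0.08 without Lpcat3 KOMac mouse 1 and 0.13 without Lpcat3 KOMac mouse 3. Without both Lpcat3 KOMac mouse 2 and WT mouse 1, the libraries with the most hepatocyte transcripts, it was -0.50 with a standard error of 0.12 and an adjusted p of 0.197 in edgeR. Lpcat3 KOMac mouse 2 was also the lowest of the 6 libraries for all 8 Kupffer cell markers, by most for *Marco* (148.5 CPM against at least 999 CPM in the others), *Timd4* (122.9 against at least 344 CPM) and *Cd163* (396 against at least 684 CPM). The part of this in the level of *Pla2g7* was not tested. The exons of *Pla2g7* share 319 bases with the antisense gene *1700071M16Rik*, which had at most 277 counts in any library, while *Pla2g7* had at least 12414.

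*Pla2g15* (ENSMUSG00000031903, chromosome 8, 106150399 to 106164715, plus strand) encodes the phospholipase A2 of lysosomes, where macrophages break down the membranes they take up. It was at 353, 434.6 and 397.5 CPM in the WT libraries and 347, 323 and 436 CPM in the Lpcat3 KOMac libraries. The highest and the lowest library were both Lpcat3 KOMac. The log2 fold change was -0.10 (standard error 0.15, 95% interval -0.46 to 0.26), and 0.0061 without Lpcat3 KOMac mouse 2.

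**Figure D3:**
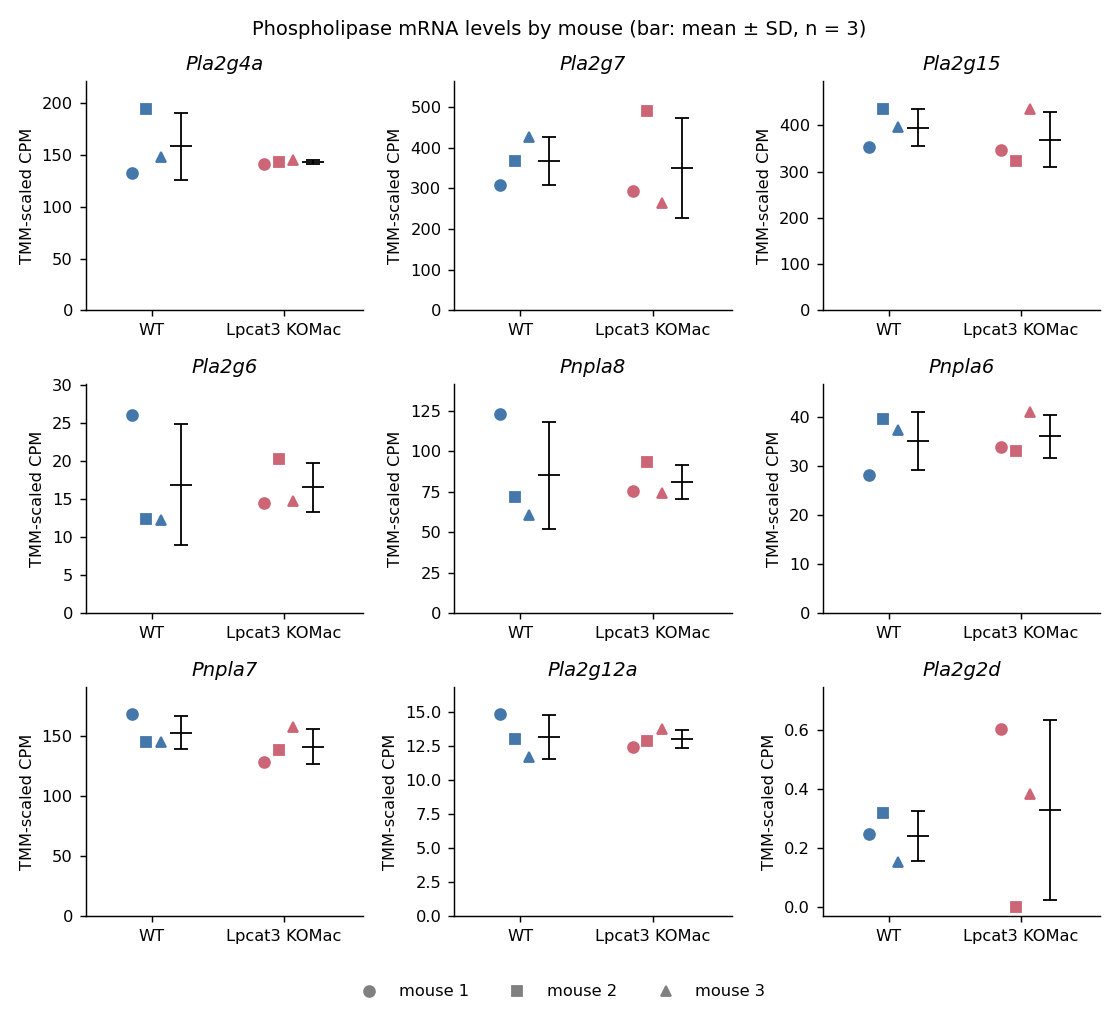
Levels of the 9 phospholipase genes by mouse. Each panel gives TMM-scaled CPM for 3 WT and 3 Lpcat3 KOMac libraries (symbols mark mice 1 to 3), with the mean and SD beside them. The groups overlap in all 9 panels. WT mouse 1 and Lpcat3 KOMac mouse 2 are the highest for *Pla2g6* and *Pnpla8*, as for 21.8% of all genes tested.

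Among the calcium-independent enzymes, *Pla2g6* and *Pnpla8* varied most between mice, with a within-genotype SD of log2 CPM of 0.47 and 0.39 against a median of 0.21 over all genes tested. *Pla2g6* (ENSMUSG00000042632, chromosome 15, 79286228 to 79328390, minus strand) encodes iPLA2 beta, which remodels phospholipids without calcium. It was at 26.0, 12.4 and 12.3 CPM in the WT libraries and 14.5, 20.3 and 14.8 CPM in the Lpcat3 KOMac libraries. *Pnpla8* (ENSMUSG00000036257, chromosome 12, 44221370 to 44312343, plus strand) encodes iPLA2 gamma, a phospholipase of mitochondria and peroxisomes. It was at 122.9, 72.1 and 60.8 CPM in the WT libraries and 75.6, 93.5 and 74.1 CPM in the Lpcat3 KOMac libraries.

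For both genes WT mouse 1 was highest and Lpcat3 KOMac mouse 2 second, the order of the summed hepatocyte markers. The same 2 libraries were the highest pair for 21.8% of all genes tested, so that this order is common in these data. In the 4 other libraries *Pla2g6* ranged from 12.3 to 14.8 CPM and *Pnpla8* from 60.8 to 75.6 CPM. The part of hepatocyte RNA in their levels was not tested.

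The log2 fold change was -0.03 for *Pla2g6* (standard error 0.34, 95% interval -0.88 to 0.81) and -0.07 for *Pnpla8* (standard error 0.28, 95% interval -0.77 to 0.62). Both were positive without WT mouse 1 (0.42 and 0.29), without Lpcat3 KOMac mouse 1 (0.0825 and 0.0073) and without Lpcat3 KOMac mouse 3 (0.0641 and 0.0115), and negative without each of the other 3 mice. Without both WT mouse 1 and Lpcat3 KOMac mouse 2 they were 0.25 and 0.17. With a covariate for the mean log2 level over 7 hepatocyte markers they were -0.13 (95% interval -0.36 to 0.10) and -0.16 (95% interval -0.32 to -0.004, with an adjusted p of 0.552 in edgeR).

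**Figure D4:**
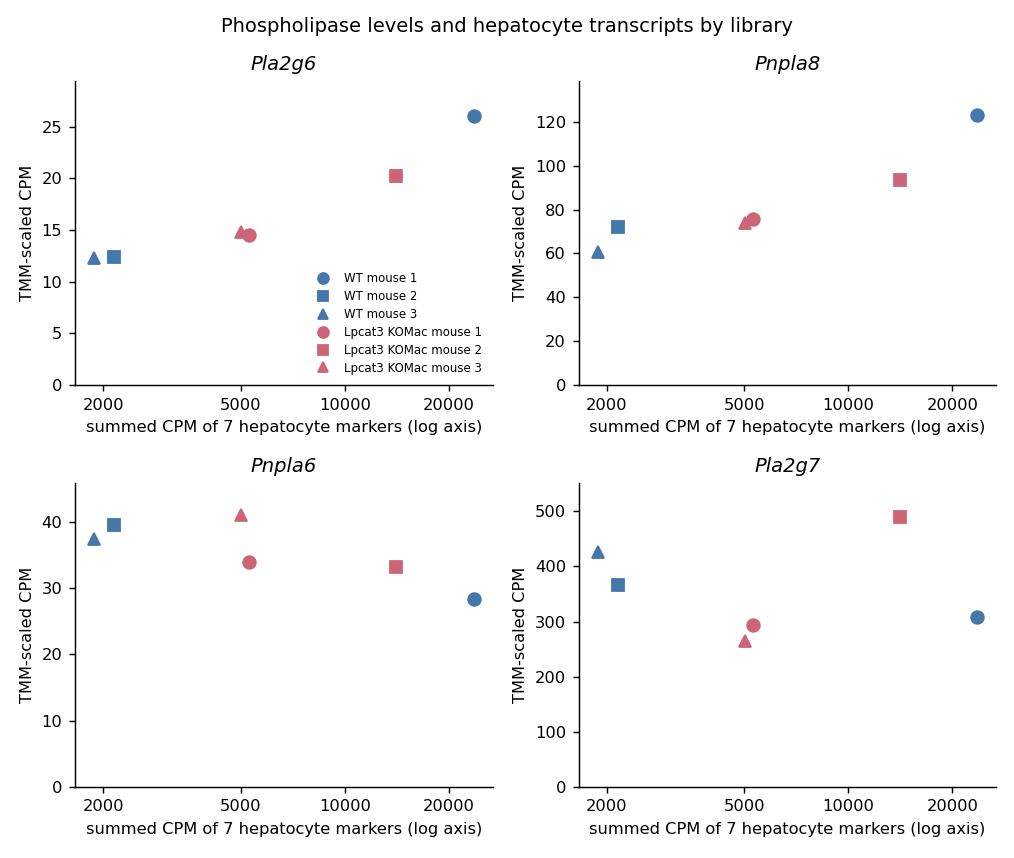
Levels of 4 phospholipase genes against hepatocyte transcripts. Each point is 1 library, with the summed CPM of 7 hepatocyte markers on a log x axis and the TMM-scaled CPM of the gene on the y axis. *Pla2g6* and *Pnpla8* are highest in the 2 libraries with the most hepatocyte transcripts, *Pnpla6* is lowest there, and *Pla2g7* shows neither order. Of all genes tested, 21.8% are highest and 22.9% lowest in these 2 libraries.

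*Pnpla6* (ENSMUSG00000004565, chromosome 8, 3515384 to 3544267, plus strand) and *Pnpla7* (ENSMUSG00000036833, chromosome 2, 24976033 to 25054057, plus strand) encode related enzymes of the endoplasmic reticulum. Both remove the remaining fatty acid from lysophosphatidylcholine, and the first is known as neuropathy target esterase. *Pnpla6* was at 28.3, 39.6 and 37.5 CPM in the WT libraries and 33.9, 33.2 and 41.1 CPM in the Lpcat3 KOMac libraries. It was the only member lowest in the 2 libraries with the most hepatocyte transcripts, an order found for 22.9% of all genes tested. Its log2 fold change was 0.04 (standard error 0.16, 95% interval -0.36 to 0.44).

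*Pnpla7* was at 169, 145.5 and 144.9 CPM in the WT libraries and 128, 138.5 and 158 CPM in the Lpcat3 KOMac libraries. The lowest 2 libraries were Lpcat3 KOMac mice and the third Lpcat3 KOMac mouse was second highest. Its log2 fold change was -0.11 (standard error 0.11, 95% interval -0.39 to 0.17). It was the only member whose direction held in all 16 alternative fits, from -0.17 to -0.01.

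The secreted enzymes with a catalytic histidine differed widely in level, with *Pla2g12a* near the middle of all genes tested (49.1% had a lower mean RPKM) and *Pla2g2d* near the bottom (5.94%). *Pla2g12a* (ENSMUSG00000027999, chromosome 3, 129878606 to 129895825, plus strand), a group XII enzyme, was at 14.9, 13.0 and 11.7 CPM in the WT libraries and 12.4, 12.9 and 13.8 CPM in the Lpcat3 KOMac libraries. It was the steadiest member, with a within-genotype SD of log2 CPM of 0.13, and its log2 fold change was -0.02 (standard error 0.13, 95% interval -0.34 to 0.30). *Pla2g2d* (ENSMUSG00000041202, chromosome 4, 138775735 to 138782046, plus strand), known from dendritic cells and macrophages of lymphoid tissue, had 16, 16 and 7 counts in WT mice and 35, 0 and 18 counts in Lpcat3 KOMac mice 1 to 3. In Lpcat3 KOMac mouse 2 the count of 0 allows a level of up to 0.0579 CPM (3 counts, for counting error only). Its log2 fold change of 0.45 (standard error 1.103) was 1.04 without Lpcat3 KOMac mouse 2 and -0.31 without Lpcat3 KOMac mouse 1, and its 95% interval is the widest of the 9.

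Some members followed each other across the 6 libraries. As a description, the root mean square difference between centred log2 CPM profiles (pseudocount 0.5) was smallest for *Pnpla7* and *Pla2g12a* (0.08), followed by *Pla2g6* and *Pnpla8* (0.10) and by *Pnpla6* and *Pla2g15* (0.11). For the 3 members with the widest range, the nearest profiles among all genes tested were those of *Slc25a39* and *Mccc1* for *Pla2g6* (0.03 each), *Cldn15* (0.03) and *Glud1* (0.04) for *Pnpla8*, and *Dnah7b* (0.07) and *Zfp809* (0.13) for *Pla2g2d*. *Dnah7b* and *Cldn15* were at most 0.677 CPM, where the pseudocount narrows differences. These likenesses rest on 6 libraries that also differ in hepatocyte transcripts.

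Of 23 other genes of the phospholipase A2 superfamily, 10 were tested and 0 were called in edgeR. Of the 10, 1 had an unadjusted edgeR p-value under 0.05, against 2.64% of all genes tested. The 13 not tested had at most 7 counts in any library, and 6 of them, the secreted enzymes *Pla2g2a* and *Pla2g5* included, had 0 counts in each library. *Pla2g16*, a small membrane-bound phospholipase, was at 54.9, 65.1 and 57.8 CPM in the WT libraries and 45.0, 46.4 and 46.7 CPM in the Lpcat3 KOMac libraries. Each Lpcat3 KOMac mouse was below each WT mouse, an order found for 5.2% of all genes tested. The log2 fold change of -0.36 had a standard error of 0.09 and an adjusted p of 0.9999 in edgeR. *Pla2g4c*, a cytosolic enzyme that needs no calcium, was also lower in each Lpcat3 KOMac library than in each WT library. It was at 3.14, 4.09 and 2.82 CPM in the WT libraries and 2.79, 2.18 and 1.42 CPM in the Lpcat3 KOMac libraries (log2 fold change -0.65, standard error 0.32). *Pla2g12b*, *Pafah2* and *Pnpla2* were highest in the 2 libraries with the most hepatocyte transcripts, an order found for 21.8% of all genes tested. *Pafah2*, which cleaves platelet-activating factor inside cells, was at 63.2 and 36.6 CPM there against at most 19.8 CPM in the others. *Pla2g12b* was at 15.2 and 7.001 CPM against at most 3.94 CPM, and *Pnpla2* at 183.1 and 146.5 CPM against at most 132.4 CPM. *Pla2g2a*, *Pla2g5*, *Pla2g4c*, *Pla2g12b*, *Pafah2* and *Pnpla2* were named after their values were seen.

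Among the 55 tested genes of 5 lists on the steps around phospholipid cleavage, the superfamily list included, edgeR and limma-voom called 0 and DESeq2 called 1, *Lpcat3*. Of 8 regulators of phospholipase A2, 0 were called and 0 had an unadjusted p-value under 0.05. The smallest p-value was that of the kinase *Mapk14*, which phosphorylates the cytosolic enzyme and whose log2 fold change was -0.15 (standard error 0.07). Of 12 lysophospholipases and glycerophosphodiesterases, 0 were called. Against 2.64% of all genes tested, 1 of the 12 had an unadjusted edgeR p-value under 0.05. This was *Enpp6*, a choline-specific glycerophosphodiesterase, at 5.295, 3.953 and 4.396 CPM in the WT libraries and 10.97, 12.75 and 6.311 CPM in the Lpcat3 KOMac libraries (log2 fold change 1.14, standard error 0.30, adjusted p = 0.9999 in edgeR).

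A list of 12 genes held lysophospholipid acyltransferases and also *Tmem86a* and *Tmem86b*, whose enzymes cleave lysoplasmalogens and do not reacylate. Of these 12 genes, 11 were tested. Only *Lpcat3*, the targeted gene, had an unadjusted edgeR p-value under 0.05 (log2 fold change -1.56, standard error 0.26). It was not called by edgeR (adjusted p = 0.9999) and was called by DESeq2 (adjusted p = 0.00286 with Benjamini-Hochberg adjustment). The other 10 tested genes of this list had log2 fold changes between -0.40 and 0.43. Of 15 genes that act on released arachidonic acid, 14 were tested, 0 were called and 3 were under 0.05 without adjustment, against 2.64% of all genes tested. *Alox5ap*, the activating protein of 5-lipoxygenase, was at 96.0, 152.7 and 87.6 CPM in the WT libraries and 71.8, 60.9 and 48.2 CPM in the Lpcat3 KOMac libraries (log2 fold change -0.90, standard error 0.26). *Ltc4s*, leukotriene C4 synthase, was between 12.1 and 12.8 CPM in WT and between 5.32 and 9.86 CPM in Lpcat3 KOMac cells (log2 fold change -0.71, standard error 0.24). *Alox12*, a 12-lipoxygenase, was between 0.739 and 0.940 CPM in WT and between 1.18 and 1.47 CPM in Lpcat3 KOMac cells (log2 fold change 0.73, standard error 0.24). For these 3 genes the groups did not overlap, as for 7.49% of all genes tested. *Alox5ap* overlaps the antisense gene *Gm19719* (44 counts or fewer per library), and *Ltc4s* overlaps *Gm26542* (72 counts or fewer). The median log2 fold changes of these 5 lists lay between -0.19 and 0.00, against -0.04 for all genes tested.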

How the data were processed

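The authors deposited 1 table of raw read counts per mouse, with reads per Ensembl gene and no normalization. The submitters' processing notes name Trimmomatic 0.36, STAR 2.5.2b, featureCounts, Subread 1.5.2 and GRCm38. Strand setting and treatment of reads with several matches are not given in the sources used here, so overlapping genes and close paralogs are uncertain.

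Symbols came from GENCODE M21 (48970 of 49315 identifiers matched). Counts were fitted with edgeR 4.0.16 in R 4.3.3 (TMM, default filter with minimum count 10, robust quasi-likelihood test, genotype as the only term). The standard error was taken as the size of the log2 fold change over the square root of F, and 95% intervals use the fit's degrees of freedom. DESeq2 1.42.0 and limma 3.58.1 (voom) served as alternatives, with other scalings, filters, a replicate block, a hepatocyte covariate and each mouse left out. The fits were also run on simulated counts drawn independently for each gene. Such counts lack the shared differences in hepatocyte transcripts between libraries, so that this run says nothing about them. Named were all 9 members, *Lpcat3* and *Lyz2* as the check of the labels, genes of 5 pathway lists with an unadjusted p-value under 0.05 (or the smallest), the nearest profiles, and overlapping genes. The members and lists were chosen with earlier results of these data known. The libraries of a genotype came from different mice, and none was a copy of another (chi-square per degree of freedom at least 40.7).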

Additional observations from a re-analysis of the deposited data

How the results depend on the processing

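Of the 9 phospholipase genes, 0 were called under any of the 16 alternative fits, and only the direction of *Pnpla7* held in all of them. Without adjustment 1 member (*Pnpla8*) was under 0.05 in edgeR with the hepatocyte covariate, as were 1452 of all 16134 genes tested. Without both libraries highest in hepatocyte transcripts 1 member (*Pla2g7*) was under 0.05, as were 1767 of all 16126 genes tested. With total counts alone, which shifted the median log2 fold change of all genes by 0.10, the values of *Pla2g6*, *Pnpla8*, *Pla2g12a* and *Pla2g7* turned to 0.0818, 0.0403, 0.0836 and 0.0114. Without WT mouse 1 and Lpcat3 KOMac mouse 2 together, *Pla2g6*, *Pnpla8*, *Pnpla6* and *Pla2g12a* turned to 0.25, 0.17, -0.037 and 0.0882. In limma-voom *Pla2g2d* turned to -0.85. Over the 6 fits that each omit 1 mouse, log2 fold changes ranged from -0.26 to 0.0285 for *Pla2g4a*, -0.22 to 0.42 for *Pla2g6*, -0.27 to 0.29 for *Pnpla8*, -0.0947 to 0.13 for *Pnpla6*, -0.31 to 1.04 for *Pla2g2d*, -0.0981 to 0.0804 for *Pla2g12a*, -0.38 to 0.13 for *Pla2g7* and -0.21 to 0.0061 for *Pla2g15*. DESeq2 called 12 genes in all, 1 of them in the pathway lists (*Lpcat3*, at -1.55), where the other fits called 0. The mean level of *Pnpla8* was 5.87 RPKM with the annotation's exon length. The cause of these changes was not tested, except that fits without a mouse hold fewer samples. *Pla2g2d* could not be tested with at least 10 counts required in every library, and DESeq2 gave it no adjusted p-value.

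Both genotypes carry replicate numbers 1 to 3, and the sources used here give no pairing of mice by these numbers. Same-numbered mice had deviations from the genotype mean that correlated at -0.36, -0.67 and 0.39 across genes. The largest correlation, 0.71, joined WT mouse 1 and Lpcat3 KOMac mouse 2, the libraries with the most hepatocyte transcripts. Since the libraries differ this much in hepatocyte transcripts, these values cannot decide whether the numbers pair mice. With the replicate block *Pla2g6* turned to 0.0486, 0 genes were called by edgeR and 138 had an unadjusted p-value under 0.05.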
